A study of Mus musculus with 76 samples.

Results

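Proteasome genes were followed in liver and visceral white adipose tissue (WAT) of Fnip2 C/C and T/T mice. The members were all entries of both tables of normalized counts whose symbol starts with Psma, Psmb, Psmc, Psmd, Psme, Psmf or Psmg followed by a digit, and no entry with a pseudogene suffix matched. The rule gave the same 50 genes in each table, out of 18964 entries in WAT and 16775 in liver. Of these, 46 in WAT and 48 in liver reached the mean normalized count of 10 required for testing. Below it were Psma5, Psma8, Psmc3ip and Psme2 in WAT and Psma8 and Psmc3ip in liver.

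The knock-in mice were made by CRISPR/Cas9 editing of zygotes and carry a T-to-C change in the 3′UTR of Fnip2, a folliculin-interacting protein gene, together with a G-to-C change that removes the PAM of the guide. T/T mice, from the same line, are homozygous for T at this site. All mice sequenced were females with free access to food, and their age is not given in the labels. WAT came from 4 C/C mice (numbers 590, 593, 599 and 638) and 5 T/T mice (607, 608, 609, 657 and 658), and liver from 5 C/C mice (590, 591, 592, 638 and 639) and 5 T/T mice (607, 608, 657, 658 and 659). Values per mouse are given below in this order. Since the libraries of a group are from separate mice, the p-values measure the spread between mice.

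The proteasome degrades proteins marked with ubiquitin. Its barrel-shaped core particle has outer rings of alpha subunits, which gate the entry, and inner rings of beta subunits, of which Psmb5, Psmb6 and Psmb7 cut proteins. Interferon induces the alternative catalytic subunits Psmb8, Psmb9 and Psmb10, which replace them to form the immunoproteasome and favour peptides for class I antigen presentation. The regulatory cap binds ubiquitin chains and unfolds substrates with a ring of ATPases (Psmc genes) and a lid and base of Psmd genes, while Psme genes encode activators that cap the core in its place. In many cells the transcription factor Nfe2l1, also called Nrf1, raises subunit genes together through antioxidant response elements when proteasome activity is short.

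Promoter windows, from 250 bases before to 50 bases after the RefSeq start in GRCm38.p6, were at hand for 42 of the 50 genes, while the authors counted reads on GRCm39. Stretches around 3 motifs searched on both strands are shown for called members that moved in opposite directions in WAT, for the catalytic subunits Psmb5 and Psmb6, and for Psme1, an interferon-inducible activator subunit that did not pass the test. Capitals mark the motif, and each line reads along the strand of its gene. The interferon-type matches shown are on the opposite strand, so their capitals are the reverse complement of the searched letters.
Psma2, chr13:14613180-14613200, plus strand, CCAAT box: actctcctCCAATcagagcaa
Psmb3, chr11:97703383-97703403, plus strand, CCAAT box: cccgccagCCAATggggagga
Psmc1, chr12:100110019-100110039, plus strand, CCAAT box: atgtttaaCCAATccttgtac
Psmb5, chr14:54618026-54618050, minus strand, ARE core: tgaagttgTGACGTCGCggcgttgc
Psmb6, chr11:70525340-70525364, plus strand, ARE core: aaagagagTGACGGAGCgctttacg
Psmb3, chr11:97703263-97703288, plus strand, interferon element: cagtgactTTTCACTTTCcgctttcc
Psme1, chr14:55578495-55578520, plus strand, interferon element: agctgtgcTTTCGCTTTCccttcccg
Some genes had more than 1 window, and a gene was counted if any of its windows held the motif. The antioxidant response element (ARE) core was searched as TGACNNNGC. It was found in 6 of the 42 genes (14.3%), against 14.8% of the 17491 protein-coding genes with a promoter window. CCAAT was found in 15 of the 42 genes (35.7%), against 42.3%. The interferon-type element was searched as GAAA, 2 bases of any kind and GAAA again. It was found in 5 genes (11.9%), Psmb3, Psmd4, Psmd9, Psme1 and Psmg4, against 3.94% of all protein-coding genes with a window. Among members with a window, CCAAT was in 5 of 9 that were lower in C/C WAT and 2 of 5 that were higher. The antioxidant core was in 0 of those 9 and 1 of those 5, that of Psmb6. A match gives only the letters in the window.

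In the GENCODE annotation of GRCm38, Psmb8 (chr17:34197721-34201454, plus strand) and Psmb9 (chr17:34181987-34187764, minus strand) lie close together, and Psme1 (chr14:55578123-55581529, plus strand) is close to Psme2 (chr14:55587441-55591113, minus strand). Psme2b (chr11:48945354-48946190, minus strand) is a near copy of Psme2 elsewhere in the genome whose annotated gene and transcript both span 837 bases. Reads of Psme2 and Psme2b may have been split between them in counting, so the values of both are uncertain. The rule also took Psmc3ip, a meiotic recombination factor, and Psme3ip1, which encodes a protein that binds Psme3. Neither encodes a proteasome subunit.

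The reads recovered from the tables numbered 4180209 to 6277644 per library in WAT and 5583041 to 7523200 in liver. Hepatocyte markers summed to 93093 to 125228 RPM (reads of a gene scaled to the same total of recovered reads in each library) in liver and to at most 52.9 in WAT, and adipocyte markers to 3802 to 16348 in WAT and at most 29.6 in liver, where Adipoq, Plin1 and Lep were not listed. The WAT libraries of the genotypes did not overlap in the summed level of adipocyte markers (3802 to 9178 RPM in C/C, 10844 to 16348 in T/T, 5 of 6 markers lower in C/C), endothelial markers (478 to 698 against 719 to 1128, 4 of 6 lower) and B cell markers (64.1 to 112 against 138 to 241, 1 of 2 tested lower, Cd79a not listed). The few hepatocyte marker reads in WAT were lower in C/C as well (6.22 to 25.5 against 31.4 to 52.9). Reads of genes named as small nucleolar RNAs also differed without overlap, with 276 to 1542 RPM in C/C and 94.9 to 196 in T/T. The C/C WAT library of mouse 593 held 4759 RPM of ovary markers, against 10.5 to 28.5 in the other WAT libraries. Macrophage markers (483 to 1154 in C/C, 480 to 749.5 in T/T) and the general leukocyte markers (131 to 253 and 130 to 176) overlapped in sum. Of the 6 macrophage markers 2 were lower and 1 higher in C/C, and of the 6 leukocyte markers 1 was lower and 1 higher. The part of these differences in the results on WAT below was not tested, and in bulk tissue fewer cells of a type and less RNA per cell cannot be told apart.

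In WAT, proteasome genes did not move as 1 block. Of the 46 tested, 11 were lower and 6 higher in C/C than in T/T mice by limma at a Benjamini-Hochberg adjusted p under 0.05, and 29 did not pass the test. That is 37.0% of the members, beside 32.1% of all 12798 genes tested in WAT, 17.0% lower and 15.1% higher. Libraries of the genotypes did not overlap for 13 of the 46 members, beside 26.1% of all genes. The share called was therefore near that of any gene, and what follows describes which members made it up. The median log2 difference, on the log2(normalized count + 1) scale used throughout, was -0.03 over the members and 0.02 over all genes. Without mouse 593, the library with ovary markers, 10 were lower and 5 higher, and without mouse 599 11 were lower and 2 higher. Counts over all genes in these fits are not given here, so whether such shifts are particular to the members was not tested. The log2 differences of the 46 members ranged from -3.41 for Psmg2 to 1.05 for Psmc1. The summed RPM of all 50 genes was 4055 to 5217 in C/C and 3854 to 4364 in T/T WAT, and overlapped.

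**Figure D1:**
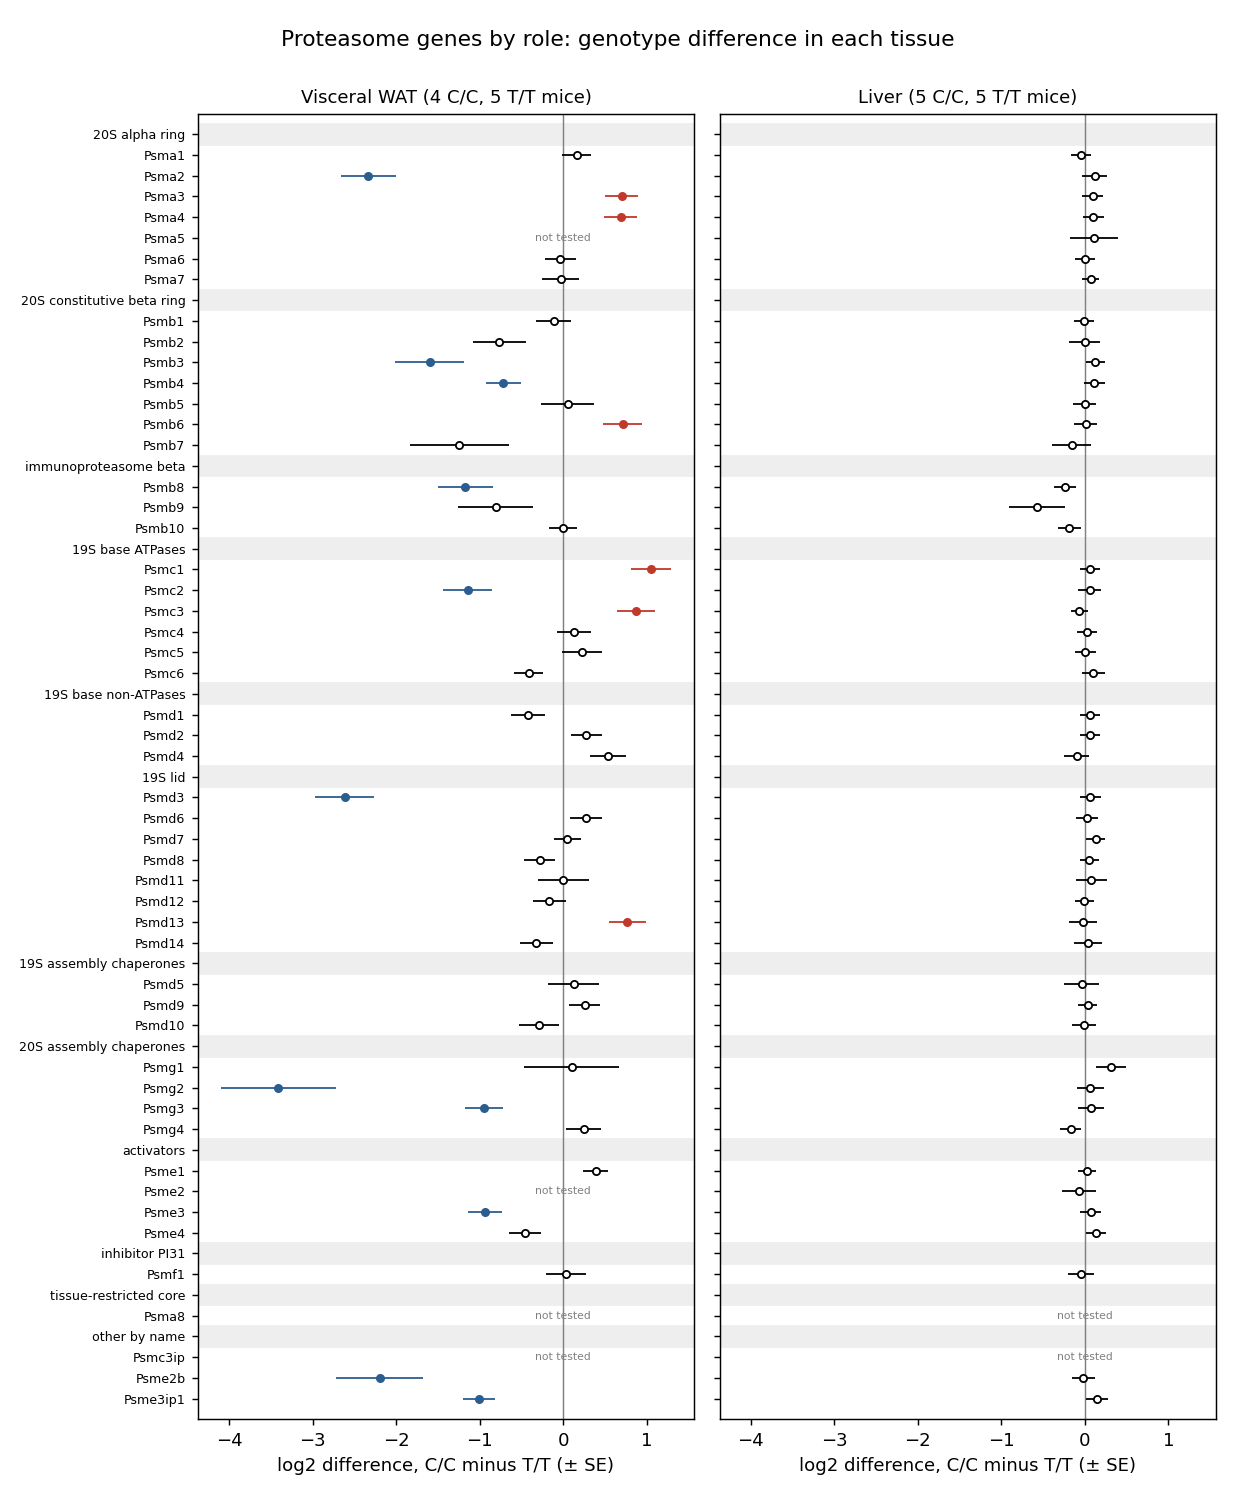
Log2 difference in normalized count between C/C and T/T mice (x axis, points, with bars of 1 SE) for each proteasome gene, grouped by role, in WAT (left) and liver (right). Filled blue points passed the limma test as lower in C/C and filled red points as higher, open points did not pass. In WAT members of the same ring or cap lie on both sides of 0, while in liver no point is filled.

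Within the alpha ring, 1 of 6 tested genes fell and 2 rose, with a median log2 difference of 0.07. Among all genes tested in WAT, 17.0% were lower and 15.1% higher. Psma2 had normalized counts of 56.5, 50.5, 92.1 and 36.3 in the C/C mice and 326, 184, 181, 339 and 506 in the T/T mice. Every C/C value lay below every T/T value, and the difference was 5.04-fold (log2 difference -2.33, SE 0.33, limma adjusted p = 0.00079). Psma4, the neighbouring gene product in the same ring, moved the other way with 742, 985, 1057 and 924 in the C/C mice and 499.7, 584, 812, 475 and 537 in the T/T mice (log2 difference 0.69, SE 0.20, limma adjusted p = 0.018). Only the T/T mouse 609, at 812, reached into the C/C range of 742 to 1057. Psma3 was likewise higher in C/C, with means of 523 ± 117 (SD, n = 4) in C/C and 319 ± 54.2 (SD, n = 5) in T/T (log2 difference 0.70, SE 0.20, limma adjusted p = 0.017), again with overlap. Both lost their call without mouse 599. Psma1, Psma6 and Psma7 did not pass the test, with log2 differences of 0.16, -0.03 and -0.03. Psma5 was not tested, with 9.41, 10.3, 3.25 and 2.34 in the C/C mice and 13.95, 5.84, 7.81, 4.96 and 12.9 in the T/T mice.

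Of the 7 constitutive beta subunits, 2 fell and 1 rose, and the median log2 difference was -0.71. These few genes stand beside 17.0% lower and 15.1% higher among all genes. Psmb3, a structural subunit, measured 319.9, 265, 251 and 52.7 in the C/C mice and 499, 546, 545, 653 and 558 in the T/T mice. All C/C values were lower than all T/T values, and mouse 638 lay far below the other C/C mice (log2 difference -1.60, SE 0.42, limma adjusted p = 0.013). Without mouse 638 the log2 difference was -1.01 with an adjusted p of 0.0029. Psmb4, another structural subunit, gave 329, 401, 359.9 and 211 in the C/C mice and 543, 419, 557, 469 and 639.6 in the T/T mice, without overlap (log2 difference -0.71, SE 0.21, limma adjusted p = 0.021), and was not called without mouse 638 or mouse 658. Among the catalytic subunits, Psmb6 was higher in C/C at 1082, 1678, 1535 and 1307 in the C/C mice and 726, 799.7, 1242, 590.0 and 1002 in the T/T mice. The ranges overlapped (log2 difference 0.71, SE 0.23, limma adjusted p = 0.032), and leaving out mouse 593, 599, 607, 608, 638 or 657 ended the call, while the log2 difference stayed between 0.58 and 0.85 over all alternatives. Psmb5 had 29.4, 46.8, 41.2 and 34.0 in the C/C mice and 27.9, 26.3, 45.8, 25.8 and 68.2 in the T/T mice, a log2 difference of 0.05 with a 95% interval of -0.70 to 0.81. Psmb7 ranged from 6.50 to 36.3 in C/C and from 17.9 to 129 in T/T and did not pass the test (log2 difference -1.24, SE 0.59, limma adjusted p = 0.12). The interval of Psmb5 still includes a change of the size seen for Psmb6, so the test does not show that Psmb5 was unchanged. Psmb2 did not pass in limma (log2 difference -0.76, SE 0.32, adjusted p = 0.082). On the recovered reads its adjusted p was 0.049 with edgeR and 0.040 with DESeq2. Psmb1 did not pass either, at a log2 difference of -0.12 (SE 0.21).

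The immunoproteasome genes all had a log2 difference at or below 0 in WAT. Of the 3, 1 passed the test, beside 32.1% of all genes. Psmb8, the inducible counterpart of Psmb5, measured 125, 55.2, 105 and 65.6 in the C/C mice and 257, 118, 112, 255 and 274 in the T/T mice. The T/T mice 607, 657 and 658 lay at 255 or above, far over the highest C/C value, whereas mice 608 and 609 lay within the C/C range (log2 difference -1.17, SE 0.33, limma adjusted p = 0.018). Without mouse 593, the library with ovary markers, the log2 difference was -0.98 with an adjusted p of 0.051, and without mouse 638 it was -1.06 with 0.060. Psmb9, the counterpart of Psmb6, measured 22.3, 10.3, 21.7 and 18.7 in the C/C mice and 50.1, 13.6, 18.98, 31.7 and 72.8 in the T/T mice. The same T/T mice 607, 657 and 658 were high, 608 and 609 lay within the C/C range, and the gene did not pass the test (log2 difference -0.81, SE 0.45, limma adjusted p = 0.19, 95% interval -1.88 to 0.26). Psmb10, the counterpart of Psmb7, measured 291, 309, 339 and 292 in the C/C mice and 261, 339, 371, 267 and 313 in the T/T mice, with a log2 difference of 0.00 and a 95% interval of -0.39 to 0.39. The B cell markers that were lower in C/C WAT, and the general leukocyte and macrophage markers, whose sums overlapped, are given above.

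The share of reads from the inducible member was also taken for each catalytic pair. These are 3′ tag reads of different genes, whose comparability was not tested, and the level of a share differed widely between the pairs, so it is no measure of how much immunoproteasome was present. For Psmb8 with Psmb5 it was 80.9, 54.1, 71.9 and 65.9% in the C/C WAT libraries and 90.2, 81.8, 70.9, 90.8 and 80.0% in the T/T ones. The medians were 68.9 and 81.8%, the ranges overlapped, and the 95% Wilson interval of a library, which covers counting error only, was up to 19.8 percentage points wide. For Psmb9 with Psmb6 the share was 2.02, 0.61, 1.39 and 1.41% in C/C and 6.45, 1.67, 1.504, 5.10 and 6.77% in T/T WAT, with a widest interval of 3.48 points. Both genes enter this ratio, and of them only Psmb6 passed the test. For Psmb10 with Psmb7 the order was the other way, with medians of 93.5% in C/C and 89.1% in T/T and ranges of 88.9 to 98.1% and 70.8 to 95.4%. In liver the medians were 64.7% in C/C and 65.8% in T/T for Psmb8, 5.42 and 7.85% for Psmb9, and 59.8 and 57.7% for Psmb10. No test was run on these shares.

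**Figure D2:**
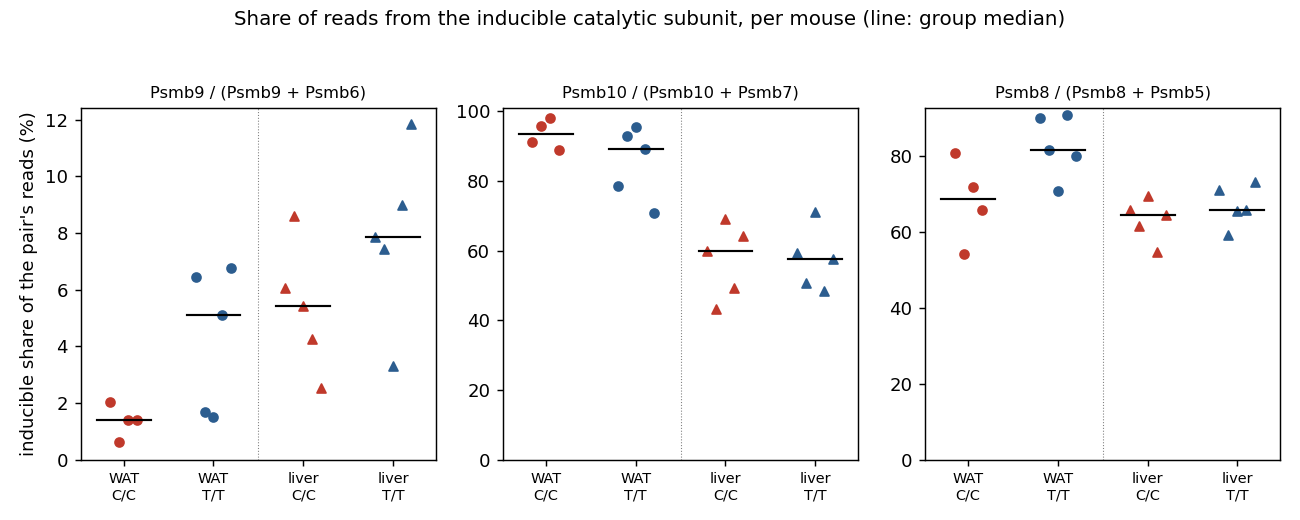
Share of reads (y axis, percent) from the inducible subunit in each pair of catalytic subunits, with 1 point per mouse and lines at the group medians, for WAT (circles) and liver (triangles) of C/C (red) and T/T (blue) mice. The Psmb10 share is above 70% in every WAT library and at most 71.2% in liver, and the Psmb9 share is at most 11.8% in every library.

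The regulatory cap showed the same mixture, with 2 of 17 genes lower, 3 higher and a median log2 difference of 0.05. That is 29.4% of the cap genes called, beside 32.1% of all genes tested in WAT. Psmd3, a lid subunit, had the most negative log2 difference among the tested subunits of core and cap, at 96.4, 77.7, 95.4 and 28.1 in the C/C mice and 471, 319, 301, 402 and 684 in the T/T mice. The groups were far apart, with a T/T to C/C ratio of 6.12 on the fitted scale (log2 difference -2.61, SE 0.35, limma adjusted p = 0.00074). In the same lid, Psmd13 rose, with 827, 852, 951 and 777 in the C/C mice and 410.3, 609, 721, 339 and 501 in the T/T mice and no overlap (log2 difference 0.77, SE 0.22, limma adjusted p = 0.018), a call lost without mouse 599. Psmd7, the lid partner of the deubiquitinase Psmd14, did not pass the test at a log2 difference of 0.05 (SE 0.16). Of the 6 ATPases, Psmc1 rose most, from 659, 1290.0, 1234, 754 and 814 in T/T to 1785, 2140.3, 1442 and 2371 in C/C mice. All C/C values exceeded all T/T values (log2 difference 1.05, SE 0.24, limma adjusted p = 0.0064). Psmc3 followed it with means of 2059 ± 413 (SD, n = 4) in C/C and 1139.5 ± 309 (SD, n = 5) in T/T, also without overlap (log2 difference 0.87, SE 0.23, limma adjusted p = 0.012). Psmc2, in the same ATPase ring, was lower at 108, 97.3, 139.8 and 143 in the C/C mice and 336, 202, 141, 323 and 438 in the T/T mice, with only the T/T mouse 609 inside the C/C range (log2 difference -1.14, SE 0.29, limma adjusted p = 0.011). Psmc6 gave a log2 difference of -0.41 (SE 0.17) and did not pass. Psmd4, a ubiquitin receptor of the cap, had means of 2572 ± 193 (SD, n = 4) in C/C and 1819 ± 467 (SD, n = 5) in T/T and an adjusted p of 0.071, with 0.042 under DESeq2 and 0.10 under edgeR on the recovered reads.

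**Figure D3:**
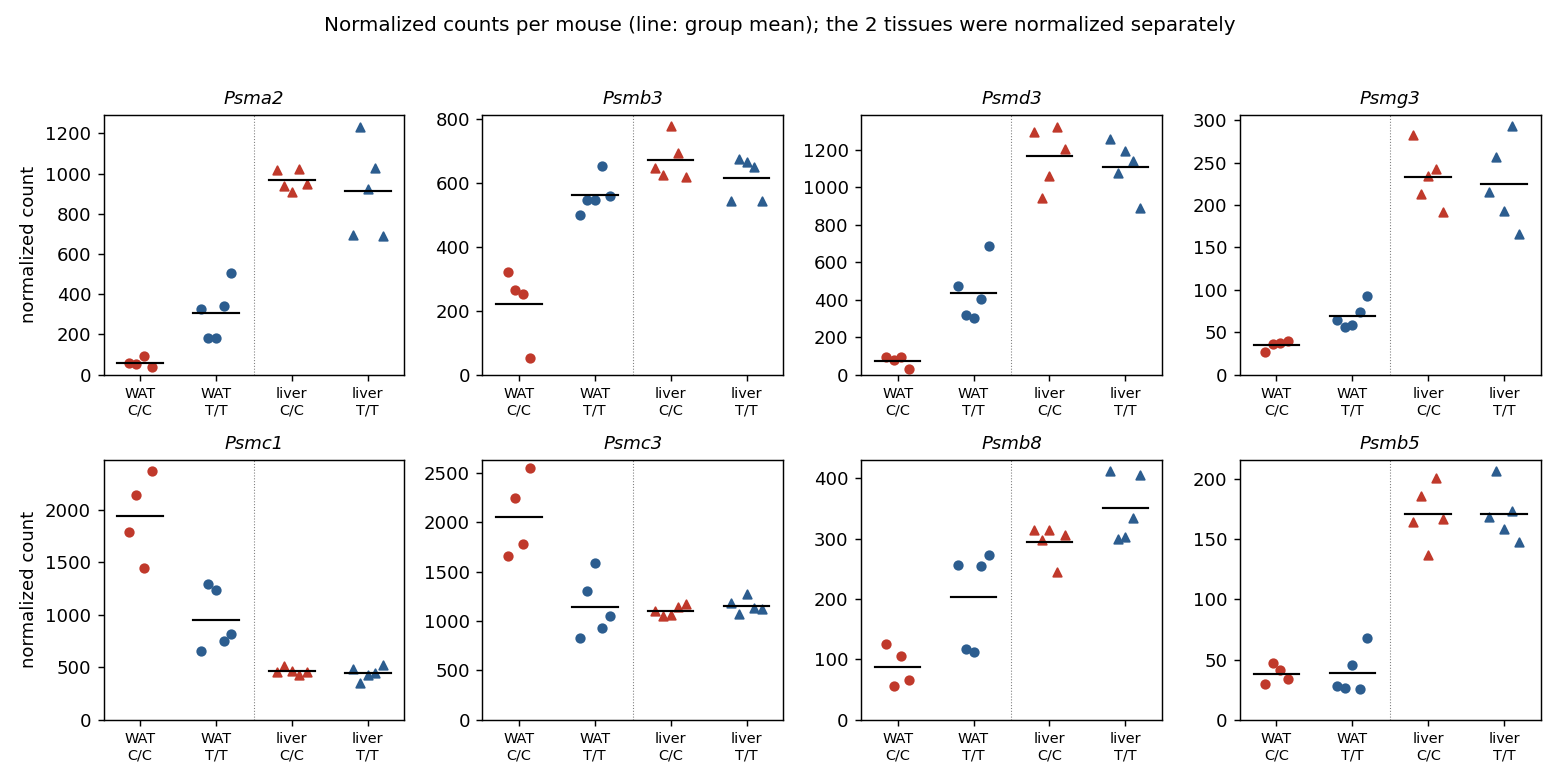
Normalized counts (y axis, linear from 0) of 8 proteasome genes, with 1 point per mouse and lines at the group means, for WAT (circles) and liver (triangles) of C/C (red) and T/T (blue) mice. Psma2, Psmb3, Psmd3 and Psmg3 are lower and Psmc1 and Psmc3 higher in every C/C than in every T/T WAT library, Psmb8 and Psmb5 overlap, and the liver groups overlap in every panel.

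The assembly chaperones of the core contained 2 of the fallen genes among 4, beside 17.0% lower among all genes tested in WAT. Psmg2, which pairs with Psmg1 to start the alpha ring, had 11.8, 0, 5.42 and 2.34 in the C/C mice and 68.9, 23.3, 16.7, 65.4 and 75.0 in the T/T mice. Mouse 593 had no read of it, all C/C values were below the lowest T/T value, and the fitted size (log2 difference -3.41, SE 0.69, limma adjusted p = 0.0035) depends on the pseudocount, being -1.92 with a pseudocount of 10. Its partner Psmg1 did not pass, at 16.5, 46.8, 35.8 and 58.6 in the C/C mice and 59.1, 24.3, 7.81, 50.6 and 67.4 in the T/T mice and a 95% interval of -1.24 to 1.44. Psmg3 was lower at 27.1, 36.5, 36.9 and 39.8 in the C/C mice and 64.8, 56.4, 58.0, 73.4 and 92.5 in the T/T mice, without overlap (log2 difference -0.95, SE 0.23, limma adjusted p = 0.0084). None of the 3 chaperones of the cap passed, and Psmd9 had a log2 difference of 0.26 (SE 0.18).

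Of the activators, Psme3, which caps nuclear proteasomes, fell without overlap from 151, 225, 250.1, 227 and 235 in T/T to 145, 99.2, 115 and 93.7 in C/C mice (log2 difference -0.94, SE 0.20, limma adjusted p = 0.0045). The T/T mouse 607 lay apart from the other T/T mice, close above the highest C/C value. Psme3ip1, whose product binds Psme3, was lower as well at 89.4, 65.5, 62.9 and 66.8 in the C/C mice and 129, 159.6, 116, 159 and 157 in the T/T mice (log2 difference -1.01, SE 0.19, limma adjusted p = 0.0024). Psme4 gave a log2 difference of -0.46 (SE 0.19) with an adjusted p of 0.085. Psme1, an interferon-inducible activator subunit, read 673, 730.0, 744 and 709 in the C/C mice and 585, 497, 597, 517 and 533 in the T/T mice, higher in every C/C mouse, but its limma adjusted p was 0.064 with a log2 difference of 0.39 (SE 0.15). On the recovered reads the adjusted p of Psme1 was 0.078 with edgeR and 0.0078 with DESeq2. Its partner Psme2 had at most 1.18 normalized counts in C/C WAT and from 1.116 to 21.2 in T/T WAT, and was not tested. Psme2b, its near copy, was lower at 23.5, 6.55, 10.8 and 24.6 in the C/C mice and 136, 30.2, 34.6, 91.2 and 124 in the T/T mice (log2 difference -2.20, SE 0.52, limma adjusted p = 0.0074). The inhibitor gene Psmf1 had a log2 difference of 0.03 (SE 0.24). Psma8, the alpha subunit of the testis, had at most 15.9 normalized counts in any WAT library and Psmc3ip at most 9.85. The 15.9 was in mouse 593, the library with ovary markers, and the T/T mean of Psma8 was 3.95.

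Genes that act with the proteasome but lack a Psm name were read from 5 lists, chosen with earlier results known, whose counts stand beside 17.0% lower and 15.1% higher among all genes tested in WAT. Of 7 parts and partners of the complete proteasome, 4 were higher and 1 lower in C/C WAT. Adrm1, a ubiquitin receptor of the cap, measured 141, 129, 189.7 and 119 in the C/C mice and 50.1, 77.8, 51.4, 54.5 and 66.7 in the T/T mice (log2 difference 1.25, SE 0.21, limma adjusted p = 0.0015). Pomp, which matures the core, went the other way at 532, 383, 439 and 290.5 in the C/C mice and 788, 1062, 969, 821 and 1143 in the T/T mice (log2 difference -1.24, SE 0.20, limma adjusted p = 0.0014), and both were without overlap. The deubiquitinase Usp14 rose (log2 difference 0.56, SE 0.15, limma adjusted p = 0.015), while the small lid subunit Sem1 did not pass and had no stable direction, with a log2 difference of 0.20 (SE 0.49) in limma and -0.11 in edgeR. Of 8 regulators of proteasome genes, 2 rose and 2 fell, beside 32.1% of all genes called in either direction. Nfe2l1 did not pass, with 596, 428, 716 and 896 in the C/C mice and 613, 457, 664, 465 and 662 in the T/T mice and a log2 difference of 0.17 (SE 0.23), whereas Nfe2l2, the related regulator of antioxidant genes, rose without overlap (log2 difference 0.90, SE 0.19, limma adjusted p = 0.0046). Mafg, a small Maf protein that pairs with both, fell (log2 difference -1.24, SE 0.24, limma adjusted p = 0.0027). Of 11 ubiquitin shuttle and p97 genes, 4 fell and 1 rose, beside the same 17.0 and 15.1% of all genes. Ubqln1, a ubiquitin shuttle, fell (log2 difference -1.64, SE 0.25, limma adjusted p = 0.001).

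In the list of class I antigen presentation, the pathway that immunoproteasome peptides feed, 7 of 14 genes fell and 2 rose in C/C WAT, beside 17.0% lower and 15.1% higher among all genes. B2m, the light chain of class I molecules, ran from 2626 to 13875 normalized counts in C/C and from 16281 to 30832 in T/T (log2 difference -2.05, SE 0.41, limma adjusted p = 0.0034). H2-D1, a class I heavy chain whose reads may be shared with close relatives, fell as well (log2 difference -1.67, SE 0.33, limma adjusted p = 0.0031), as did the interferon-induced transcription factor Irf1 (log2 difference -1.48, SE 0.31, limma adjusted p = 0.0042). Tap1, the peptide transporter encoded beside Psmb9, was higher in C/C (log2 difference 0.58, SE 0.19, limma adjusted p = 0.036), with overlap. The other gene of the list that rose, Tapbp, did so without overlap (log2 difference 1.01, SE 0.25, limma adjusted p = 0.0093). Nlrc5, an activator of these genes, did not pass, with a log2 difference of 0.61 (SE 0.27). In liver none of the 45 genes of the 5 lists passed the test.

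In liver, none of the 48 tested proteasome genes passed the adjusted threshold, and none had an unadjusted limma p under 0.05. Of all 11710 genes tested in liver 0% passed the adjusted threshold and 1.97% the unadjusted one. edgeR and DESeq2 on the recovered reads called no member either. Libraries of the genotypes overlapped for all 48 members, beside 0.248% of all genes without overlap. The median log2 difference of the members was 0.03, from -0.57 for Psmb9 to 0.31 for Psmg1. The liver table orders its columns by even and then odd RNA label numbers, which mixes the genotypes, and the groups were taken from the labels. Whether the column names of the liver table match the labels could not be checked, and if they do not, the liver values by genotype, the comparison of the tissues' genotype effects and the pairing of tissues by mouse lose their meaning. When the fit included that split as a term, an alternative chosen after seeing the data, 0 members passed, which does not test the labels. The 3 immunoproteasome genes lay at the low end, though none passed. Psmb9 measured 74.0, 90.5, 70.2, 57.9 and 33.8 in the C/C mice and 122, 74.6, 45.1, 108 and 155 in the T/T mice, log2 difference -0.57 (SE 0.33). Psmb8 measured 315, 298, 314, 244 and 305 in the C/C mice and 412, 299, 302, 334 and 405 in the T/T mice, log2 difference -0.24 (SE 0.13), and Psmb10 554, 367, 552, 426 and 530.1 in the C/C mice and 613, 491, 545, 474 and 617 in the T/T mice, log2 difference -0.18 (SE 0.14). Their 95% intervals were -1.33 to 0.19, -0.54 to 0.06 and -0.50 to 0.13. The WAT estimate of Psmb8, -1.17, lay outside its liver interval, but its WAT interval of -1.96 to -0.38 overlapped that of liver. For Psmb9 the WAT estimate of -0.81 lay inside the liver interval. Psmg1 had a log2 difference of 0.31 (SE 0.18).

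The members that had moved most in WAT did not pass the test in liver. Psma2 measured 1016, 939, 909, 1023 and 950.4 in the C/C mice and 693, 1232, 925, 1027 and 691 in the T/T mice, a log2 difference of 0.12 with a 95% interval of -0.23 to 0.46. For Psmd3 the values were 1294, 944, 1058, 1322 and 1205 in the C/C mice and 1257, 1074, 1195, 1139 and 887 in the T/T mice, with an interval of -0.23 to 0.37. Psmc1 had an interval of -0.22 to 0.35 and Psmg2 of -0.31 to 0.44. The spread between mice was smaller in liver, with a median within-group SD on the log2 scale of 0.19 over the members tested, against 0.32 in WAT, and of 0.29 and 0.41 over all genes.

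The difference between the genotype effects of the tissues was tested for the 46 members measured in both. It passed for 15, beside 29.2% of all 10404 genes. The largest differences, WAT minus liver, were those of Psmg2 at -3.48 (SE 0.74, adjusted p = 0.0021), Psmd3 at -2.68 (SE 0.39, adjusted p = 8.9e-05) and Psma2 at -2.45 (SE 0.37, adjusted p = 0.00014) by limma. Psmc1 and Psmc3 differed in the positive direction, by 0.99 (SE 0.26, adjusted p = 0.008) and 0.94 (SE 0.24, adjusted p = 0.0056) by limma. Of these 15, 14 had been called in WAT, and the other was Psme4 at -0.59 (SE 0.22, adjusted p = 0.042) by limma. Psmb8, Psmb6 and Psma4, called in WAT, did not pass here in limma. For Psmb8 the difference was -0.93 (SE 0.36, limma adjusted p = 0.057), with an adjusted p of 0.042 in both edgeR and DESeq2. Its effect was thus not shown to differ between tissues by the main test, while both count tests passed it. Psmb6 had adjusted p-values of 0.051 in limma, 0.044 in edgeR and 0.021 in DESeq2. Those of Psma4 were 0.054 in limma, 0.059 in edgeR and 0.027 in DESeq2. Psmb9 and Psmb10 did not pass. With mouse as a replicate block for the 6 mice that gave both tissues, 13 members passed, all among the 15, and Psma3 and Psme4 were lost with adjusted p-values of 0.059 and 0.054 in limma. Of all 10404 genes, 2753 passed with the block.

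Levels in the tissues were set side by side in the 6 mice with both, 2 C/C and 4 T/T, as log2(RPM + 1). The tables were normalized separately, so this is a description without a test. The RNA input was 250 ng for liver and 500 ng for WAT, so tissue and input cannot be told apart. In 13 members liver was above WAT in every mouse, in 11 WAT was above liver in every mouse, and 26 were mixed. The corresponding shares of all 10404 genes were 12.9 and 48.3%. The median liver minus WAT difference was -0.19 for the members and -0.66 for all genes. With size factors estimated over both tables together, 34 members were above in liver in every mouse, the 13 among them, and 1 in WAT, and the median became 0.60. Under that scaling 31.7% of all genes were above in liver in every mouse and 26.2% in WAT, with a median of 0.07, so the directions below hold under both scalings only where said. Psmd7 and Psme1 went from WAT above liver in every mouse to the opposite.

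Of the catalytic subunits of the constitutive core, Psmb5 and Psmb7 were higher in liver in every mouse under both scalings. Psmb7 had the largest difference, with a median of 2.44 (1.41 to 3.51) over the mice, lowest and highest in parentheses, and Psmb5 one of 1.85 (0.78 to 2.29). Mean RPM of Psmb7 were 4.34 in C/C and 12.2 in T/T WAT and 54.4 and 61.8 in the livers. Psmb6 was mixed in RPM at -0.28 (-0.52 to 0.49), and higher in liver in every mouse with joint size factors. Psme2 and Psme2b were higher in liver as well, at 1.85 (0.74 to 3.39) and 2.10 (0.15 to 3.27), as were Psma2, Psmb4, Psmd3, Psmg3 and Psmb10, the latter at only 0.22 (0.03 to 0.56). Psmc1 was the WAT-high gene under both scalings, at -1.90 (-2.97 to -1.21). The WAT excess of Psmd13 with a median of -1.41 (-1.996 to -0.45), Psmd4 with -1.03 (-1.39 to -0.23) and Psmc3 with -0.59 (-1.66 to -0.21) was seen in every mouse in RPM, and was mixed with joint size factors. Psmb8 and Psmb9 were mixed in RPM, at 0.36 (-0.41 to 1.32) and 0.70 (-0.14 to 1.65), and higher in liver in every mouse with joint size factors.

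**Figure D4:**
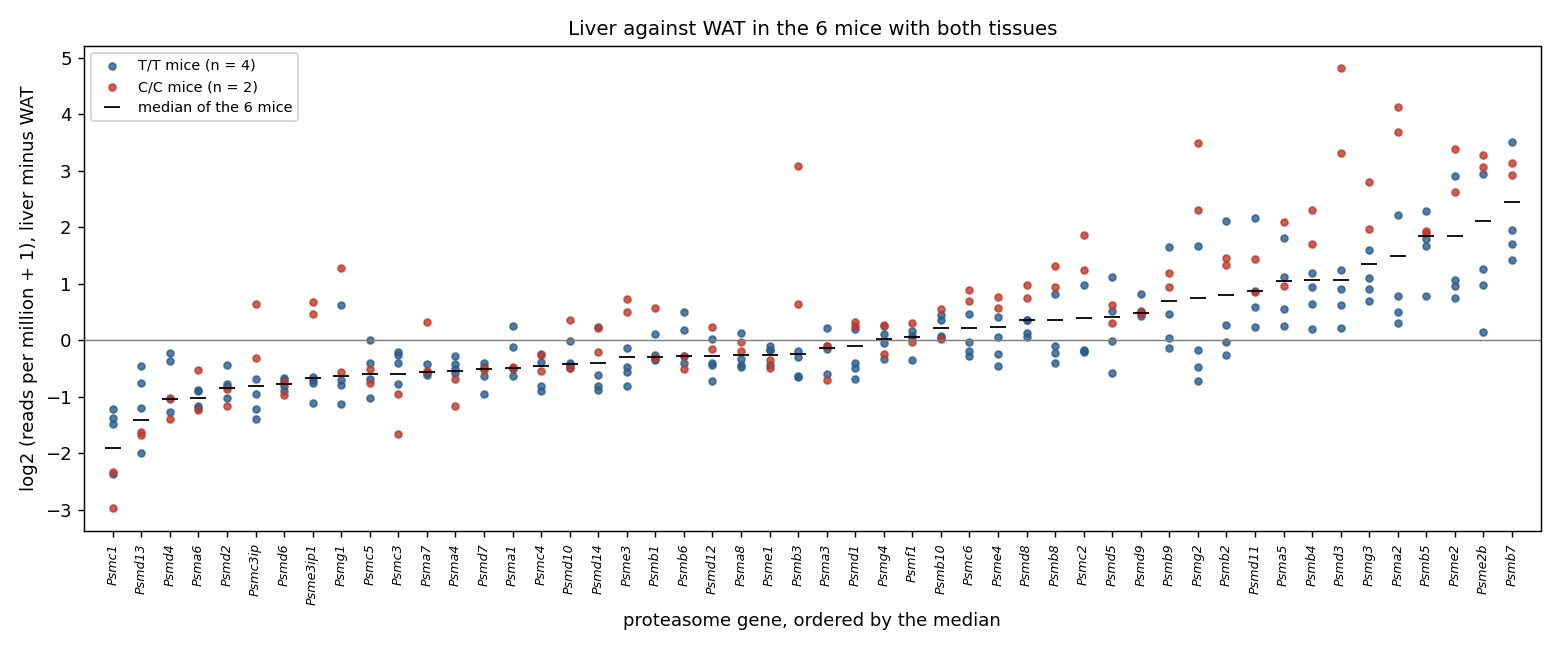
Liver minus WAT difference in log2(RPM + 1) (y axis) of each proteasome gene (x axis, ordered by median), with 1 point per mouse for the 2 C/C (red) and 4 T/T (blue) mice with both tissues and a dash at the median. Psmc1 is at the WAT end and Psmb7 at the liver end, and for Psma2, Psmd3 and Psmg2 the C/C mice lie above the T/T mice.

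The genotype pattern in WAT can be read beside these levels, although the same WAT libraries enter both. Psma2, at 12.3, 68.3, 143 and 136 RPM in C/C WAT, T/T WAT, C/C liver and T/T liver, and Psmd3, at 15.6, 96.6, 172 and 165, had their lowest level in C/C WAT. Psmc1, at 408, 208, 68.6 and 66.4, and Psmc3, at 434, 249, 163 and 172, had their highest there. Sums over a role weigh the abundant genes most, such as Psmd4 at 543 RPM in C/C WAT against 15.6 for Psmd3. They say little of the scarcer members. The alpha ring genes summed to 635 to 927 RPM in C/C and 702 to 783 in T/T WAT, and the constitutive beta genes to 441 to 775 and 573 to 712. The cap genes summed to 2293 to 2988 and 1899 to 2431, and of the C/C mice only 590, at 2293, lay inside the T/T range. The ranges of the genotypes overlapped for each of these sums. In liver the 50 genes summed to 3409.6 to 3653 in C/C and 3407 to 3632 in T/T mice.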

How the data were processed

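Female mice gave 9 WAT and 10 liver libraries, each sequenced in 4 runs (76 in the labels) and made with a 3′ tag kit that reads the sense strand. Per the submitters' processing notes, the authors used FastQC 0.11.9, HISAT2, SAMtools 1.12, HTSeq and DESeq2 with the GRCm39 build, and the strand setting of the counting is not given in the sources used here. The deposited values are a signal, counts divided by the authors' DESeq2 size factors, with a table for each tissue. Of the WAT columns, 1 that no label describes was not used. All values (100%) were whole multiples of 1 step per library, which gave the reads back.

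Normalized counts were tested as log2(value + 1) with limma 3.58.1 in R 4.3.3, per tissue, over all genes with a mean of at least 10, at a Benjamini-Hochberg adjusted p under 0.05. The 95% intervals use the moderated SE and the residual degrees of freedom of the samples. edgeR 4.0.16 and DESeq2 1.42.0 were run on the recovered reads, and the scripts were tested on simulated data. The difference between tissues was an interaction term. By the labels, 6 mice gave both tissues, and same-numbered samples were taken to come from the same animal. This could not be checked for the liver columns. The deviations of the paired samples correlated between -0.20 and 0.16, and the consensus correlation was -0.11. Replicates of a group were not copies (lowest chi-square per degree of freedom 14.2 in WAT and 7.63 in liver). Reads are not unique molecules, so intervals of shares cover counting error only.

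The members and lists were chosen with earlier results of these data known. Genes were named by rule: the catalytic and inducible subunits with Psme1 and Psme2, the member with the lowest limma p of each role in each tissue, the 5 largest and 5 smallest differences among called members without overlap, the 5 largest tissue differences, a fixed set of partners with the gene of lowest p in each list, and members under the filter or without a role. Other called members, those set beside them and the partner Tapbp were named after their values were seen. Alternatives were other pseudocounts, filters and scalings, a term for mouse number, the count tests, the replicate block and leaving out each mouse. Some partner genes that the rule named, and 1 of the 5 partner lists, are not reported here.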

Additional observations from a re-analysis of the deposited data

Results flagged for a closer look

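The 108 groups of libraries examined were those of the members named by rule, some of them named for their values in these data. In 10 of these groups, 1 mouse lay apart from the rest by Dixon's 95% criterion, which chance alone gives in about 1 in 20. In WAT these were Psme2 in C/C mouse 638 (0 normalized counts, others 0.94 to 1.18), Psmb3 in C/C mouse 638 (52.7 normalized counts, others 251 to 319.9), Psme3ip1 in C/C mouse 590 (89.4 normalized counts, others 62.9 to 66.8) and Psme3 in T/T mouse 607 (151 normalized counts, others 225 to 250.1). The Psme2 value is 0 reads against 1 read in each of the other 3 libraries, a difference that counting error alone covers. In liver these were Psmb7 in T/T mouse 657 (221 normalized counts, others 418 to 504), Psmb8 in C/C mouse 638 (244 normalized counts, others 298 to 315), Psma4 in C/C mouse 591 (866 normalized counts, others 584 to 631), Psmf1 in C/C mouse 591 (186 normalized counts, others 277 to 317), Psmg1 in T/T mouse 657 (32.9 normalized counts, others 55.7 to 57.1) and Psmd13 in C/C mouse 591 (309.5 normalized counts, others 342 to 344). Mouse 591 supplied 3 of the 6 liver values, and mouse 638 3 values over both tissues.

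The genotype effect differed between WAT and liver by the limma interaction test for 15 members, beside 29.2% of all genes tested. The log2 differences of the effects, WAT minus liver, were those of Psmg2 (-3.48), Psmd3 (-2.68), Psma2 (-2.45), Psme2b (-2.18), Psmb3 (-1.73), Psmc2 (-1.20), Psme3ip1 (-1.15), Psmg3 (-1.02), Psme3 (-1.01), Psmb4 (-0.83), Psme4 (-0.59), Psma3 (0.61), Psmd13 (0.79), Psmc3 (0.94) and Psmc1 (0.99).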

How the results depend on the processing

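Of the 17 calls in WAT, 10 were kept under every alternative. The count of lower members was 9 to 12 and that of higher members 2 to 7 when a mouse was left out, with 2 without mouse 599. For all genes, the counts without a mouse are not given here. Members with more RPM in liver in every shared mouse numbered 13 to 14 when a mouse was left out and 34 with size factors over both tables. The interaction gave 11 to 19 calls when a mouse was left out and 13 with the replicate block, which ended the calls of Psma3 and Psme4. With the block, 2753 of all 10404 genes passed. Among the members named by rule, some not called, with log2 differences near 0, changed sign. Of the others, Psmd11 in WAT and Psmc5 in liver also did so with edgeR (-0.0913 and -0.00137). In WAT this was so with equal totals (Psmb5 -0.0209, Psmd7 -0.0249 and Psmf1 -0.0419), the mouse number term (Psmf1 -0.0530), edgeR (Psmb5 -0.0620, Psmf1 -0.0186 and Psmg1 -0.131) and DESeq2 (Psmb5 -0.0354 and Psmg1 -0.0921), and in liver with edgeR (Psmb6 -0.00426), the even and odd number term (Psmb6 -0.00446) and the mouse number term (Psmd9 -0.00505, Psme2b 0.00377 and Psmd13 0.0174). Leaving out a mouse moved the log2 difference in WAT over Psmb5 -0.0627 to 0.280, Psmb10 -0.0596 to 0.0666, Psmd7 -0.00710 to 0.114, Psmf1 -0.0724 to 0.209 and Psmg1 -0.389 to 0.459, and in liver over Psmb5 -0.0633 to 0.0743, Psmb6 -0.0736 to 0.0829, Psme1 -0.00860 to 0.0498, Psme2 -0.192 to 0.0224, Psma4 -0.00314 to 0.139, Psmc1 -0.0203 to 0.125, Psmd4 -0.167 to 0.00731, Psmd9 -0.0104 to 0.0936, Psmd3 -0.0107 to 0.140, Psmf1 -0.0960 to 0.0949, Psmg2 -0.0283 to 0.165, Psme2b -0.119 to 0.0673 and Psmd13 -0.193 to 0.0637. The cause was not tested. With 4 and 5 mice and few reads for some members, small differences may have been missed.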
